A study of Mus musculus with 8 samples.

Results

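The PIWI and Argonaute genes encode the proteins that hold small RNAs and carry them to their targets. The 7 described here, Piwil1, Piwil2, Piwil4, Ago1, Ago2, Ago3 and Ago4, were taken by symbol from 55487 genes of the count table, and all 7 had enough reads to be among the 23190 genes tested. There were 4 libraries labelled KO and 4 labelled WT, of germ cells collected by fluorescence-activated sorting from fetal mouse testes on the C57BL/6 strain. The libraries labelled KO came from Rhox10-null animals, in which an X-linked homeobox gene of the reproductive Rhox cluster was targeted. Those labelled WT came from control littermates. Both groups carried Oct4-eGFP+/+, so that every animal had, on both alleles, green fluorescent protein under control of Oct4 (Pou5f1), a gene of pluripotent and early germ cells. The fetal age and the number of animals behind a library are not given, so p-values measure the spread between libraries, which may be technical.

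PIWI proteins bind piRNAs, small RNAs of the germline that guide the silencing of retrotransposons. In the fetal mouse testis, MILI (Piwil2) makes and amplifies piRNAs in the cytoplasm and MIWI2 (Piwil4) carries them into the nucleus, where DNA methylation is set on retrotransposon promoters. MIWI (Piwil1) is best known from meiotic and later male germ cells. The Argonautes AGO1 to AGO4 bind microRNAs in nearly every cell type and lower the translation and stability of messenger RNAs, and AGO2 is the one that cuts its targets efficiently.

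The enzymatic core of the whole family is the PIWI domain, whose cutting site holds a set of acidic residues and, as the fourth position, a histidine in proteins able to cut. The codon of that position is shown for 6 of the genes because it divides the Argonaute branch. Each line gives the 15 coding bases before it, the codon in capitals and the 15 bases after it, on the strand of the transcript, from GENCODE M21 transcripts (build GRCm38).
Piwil1: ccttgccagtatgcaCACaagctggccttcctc
Piwil4: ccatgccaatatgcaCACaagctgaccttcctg
Ago1: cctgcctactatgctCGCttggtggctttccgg
Ago2: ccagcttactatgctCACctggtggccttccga
Ago3: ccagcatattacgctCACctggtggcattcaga
Ago4: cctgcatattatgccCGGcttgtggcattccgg

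Piwil1, Piwil4, Ago2 and Ago3 encode histidine there, and Ago1 and Ago4 encode arginine. The codon is residue 837 of 862 in Piwil1, 853 of 878 in Piwil4, 805 of 857 in Ago1, 808 of 860 in both Ago2 and Ago3, and 809 of 861 in Ago4, counted from the first methionine of the longest open reading frame. Each stretch lies within 1 exon, for example at chr9:14702421-14702453 on the minus strand in Piwil4 and at chr15:73107200-73107232 on the minus strand in Ago2.

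In the table's annotation (GRCm38) Piwil1 (ENSMUSG00000029423) lies on chromosome 5 from 128702524 to 128755474, Piwil2 (ENSMUSG00000033644) on chromosome 14 from 70372477 to 70429383, and Piwil4 (ENSMUSG00000036912) on chromosome 9 from 14696230 to 14740740. Ago2 (ENSMUSG00000036698) lies on chromosome 15 from 73095844 to 73184935. The other 3 Argonautes are neighbours on the minus strand of chromosome 4, with Ago3 (ENSMUSG00000028842) from 126331704 to 126429556, Ago1 (ENSMUSG00000041530) from 126435012 to 126468583 and Ago4 (ENSMUSG00000042500) from 126489541 to 126533472. Despite their common origin the genes share little sequence over 50 bases, a length set for this comparison. Of the distinct stretches of 50 bases in its transcripts, Piwil2 shared none with any other annotated gene, Piwil1 0.14%, Ago4 0.29%, Ago3 0.73% and Ago1 1.53%. The largest overlap between members was 121 such stretches common to Ago1 and Ago3. Piwil4 shared 1.64%, all with Gm10706, a noncoding gene on the opposite strand that covers 137 of its exon bases and had 5 to 13 counts in a library. Ago2 shared 3.46%, of which 259 stretches lie in the predicted locus Gm6088 (63 to 121 counts), and its exons also overlap those of Chrac1 on the opposite strand by 219 bases (180 to 247 counts).

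The libraries held 16346977 to 20311338 counts. Rhox10, which should report the genotype, had 14, 10, 18 and 22 counts in the libraries labelled KO and 18, 25, 19 and 17 in those labelled WT, with a log2 fold change of -0.28 (standard error 0.32, edgeR adjusted p = 0.767), and the part removed in the null allele is not given here. The counts do not settle the labels, and every direction below is between libraries labelled KO and WT. Ddx4, the germ-cell helicase gene VASA, stood at 14.4 ± 0.322 against 14.8 ± 1.13 CPM per kilobase (SD, n = 4 each), where CPM is a count scaled to the library size and the kilobase is of gene length, and Cyp17a1, a steroid enzyme gene of fetal Leydig cells, at 429.7 ± 4.48 against 474 ± 4.29. Summed over lists, 10 germ-cell markers reached 50.01 to 54.8 CPM per kilobase under the KO label and 42.2 to 46.2 under the WT label, while 7 Leydig markers reached 911 to 928 and 1001 to 1008, and 9 Sertoli markers 229 to 236 and 239 to 252. Markers of Leydig and Sertoli cells thus stood above those of germ cells in libraries labelled as purified germ cells, and the part of such cells in the levels of the Argonautes was not tested. In such bulk samples fewer cells of a type and less RNA per cell cannot be told apart.

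Expression of the 7 genes was first compared within libraries, per kilobase of gene length. Ago2 was the most abundant, at 10.3 ± 0.110 CPM per kilobase under the KO label and 10.07 ± 0.377 under the WT label, followed by Ago1 at 8.59 ± 0.251 and 8.61 ± 0.554 (SD, n = 4 each). Piwil2 came next at 4.62 ± 0.344 and 6.30 ± 0.519, above Ago3 at 3.78 ± 0.199 and 3.71 ± 0.170. Piwil4, the nuclear partner, stood at 2.31 ± 0.164 and 2.70 ± 0.271. Piwil1 (0.949 ± 0.0581 and 1.17 ± 0.197) and Ago4 (1.02 ± 0.123 and 1.01 ± 0.0629) were lowest.

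The order was the same in both groups except for these last genes, whose libraries overlapped within each group and cannot be ranked. Every other pair of neighbours in the order was separated in all 4 libraries of each group. Against all genes tested, under the WT label, Ago2 stood above 80.4% of genes, Piwil2 above 68.8%, Piwil4 above 46.3% and Piwil1 above 26.4%. The divisor matters for these comparisons, since the table gives Ago3 and Ago2 lengths of 16571 and 14031 bases and Piwil1, Piwil2 and Piwil4 lengths of 4358, 5287 and 5392.

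**Figure D1:**
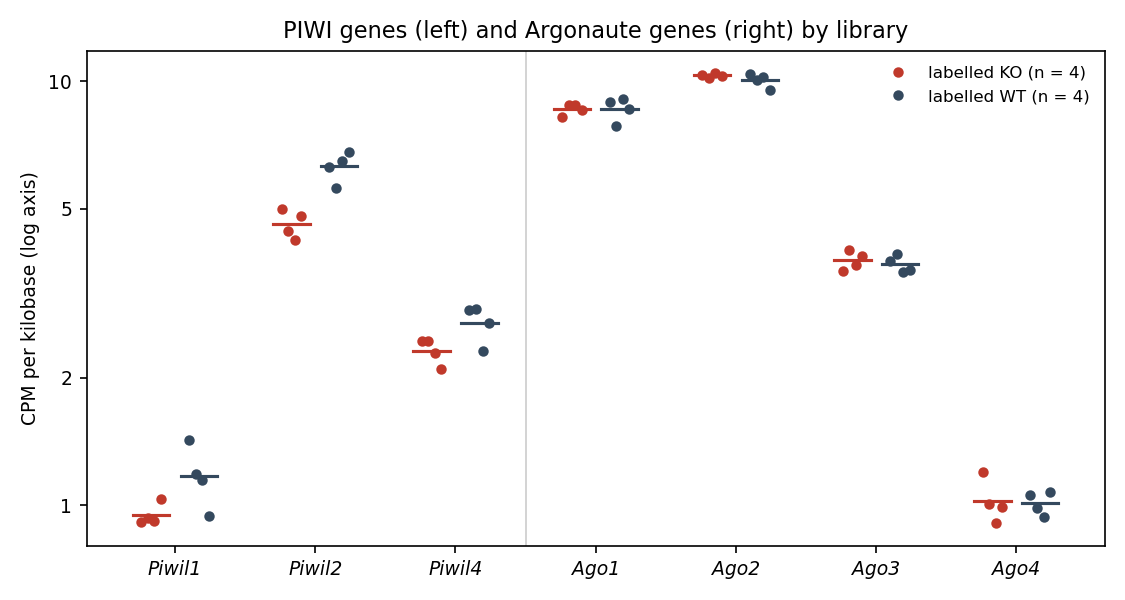
Level of each gene in every library, in CPM per kilobase of gene length on a log axis, for libraries labelled KO (red) and labelled WT (dark), with lines at the means of 4. The 4 libraries labelled KO lie below all 4 labelled WT for Piwil2, and the groups overlap for the other 6 genes.

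The labels give 1 comparison, of Rhox10-null animals with their control littermates. Among the PIWI genes, Piwil2 was lower under the KO label, by 0.45 on the log2 scale. Piwil4 and Piwil1 also had means below those under the WT label, but neither passed the test over all genes. Among the Argonautes none passed, and the intervals of Ago1, Ago2 and Ago3 lay between -0.08 and 0.11 on the log2 scale. In all, 1 of the 7 genes was called at an adjusted p under 0.05, where 5.14% of all genes tested were called, 2.80% lower and 2.35% higher under the KO label (edgeR quasi-likelihood test).

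Piwil2 had 26.4, 23.5, 22.4 and 25.5 CPM in the libraries labelled KO, against 33.2, 29.6, 34.3 and 36.1 CPM in those labelled WT. The groups did not overlap, which held for 4.72% of all genes in this direction and for 9.44% in either. The means were 24.4 ± 1.82 and 33.3 ± 2.75 CPM (SD, n = 4 each). The log2 fold change of -0.45 had a standard error of 0.06 and a 95% interval of -0.57 to -0.32 (edgeR adjusted p = 1.21e-09). It rests on 393 to 497 counts in a library labelled KO and 552 to 652 in one labelled WT. The difference is larger than the spread between libraries, which may be technical. With any 1 library left out the log2 fold change lay between -0.50 and -0.41, and it was called each time.

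Piwil4 had 13.1, 13.1, 12.3 and 11.3 CPM under the KO label, against 15.5, 15.6, 12.5 and 14.5 CPM under the WT label. The groups overlapped at the lowest library labelled WT, replicate 3. The log2 fold change was -0.22 with a standard error of 0.09 and an interval of -0.40 to -0.05, with an unadjusted p of 0.0122 and an adjusted p of 0.141. Without WT replicate 3 it was -0.29 (edgeR adjusted p = 0.0509), and without KO replicate 4 it was -0.18 (0.398). With any other library left out it lay between these values, and Piwil4 was never called. The interval overlaps that of Piwil2, and a difference in change between the fetal PIWI pair was not tested.

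Piwil1 had 3.97, 4.06, 3.99 and 4.51 CPM under the KO label, against 6.20, 5.15, 5.0 and 4.11 CPM under the WT label. WT replicate 4 lay among the libraries labelled KO. The gene was detected in every library, with 65 to 88 counts under the KO label and 71 to 104 under the WT label, so its precision was the poorest of the PIWI genes. Its log2 fold change was -0.30 with an interval of -0.59 to -0.01 (unadjusted p = 0.0409, adjusted p = 0.291).

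An unadjusted p under 0.05 with a lower mean under the KO label was reached by 8.07% of all genes tested and by each of the 3 PIWI genes, of which 1 passed over all genes. Among the Argonautes, the cleaving member comes first. Ago2 had 146, 143, 147 and 145 CPM under the KO label and 146, 141, 144 and 134 under the WT label, a log2 fold change of 0.04 with an interval of -0.02 to 0.10 (edgeR adjusted p = 0.621). Ago1 had 67.0, 71.2, 71.3 and 69.6 CPM, against 72.5, 63.7, 73.8 and 69.7, a log2 fold change of -0.00077 with an interval of -0.081 to 0.080 (adjusted p = 0.997). The groups overlapped for both genes.

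Ago3 ranged from 59.1 to 66.5 CPM under the KO label and from 58.7 to 64.9 under the WT label (log2 fold change 0.03, interval -0.06 to 0.11, adjusted p = 0.831). Ago4, with only 117 to 136 and 122 to 138 counts, had a wide interval of -0.22 to 0.25 around 0.01 (adjusted p = 0.980). Changes within that interval remain possible, and it does not mark the smallest change that could be detected. None of the 4 Argonautes had an unadjusted p under 0.05 in edgeR. By DESeq2 the number called was 0, as it was by limma voom. The intervals of Ago1, Ago2 and Ago3 do not reach the interval of Piwil2. The difference between these genes was not tested.

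**Figure D2:**
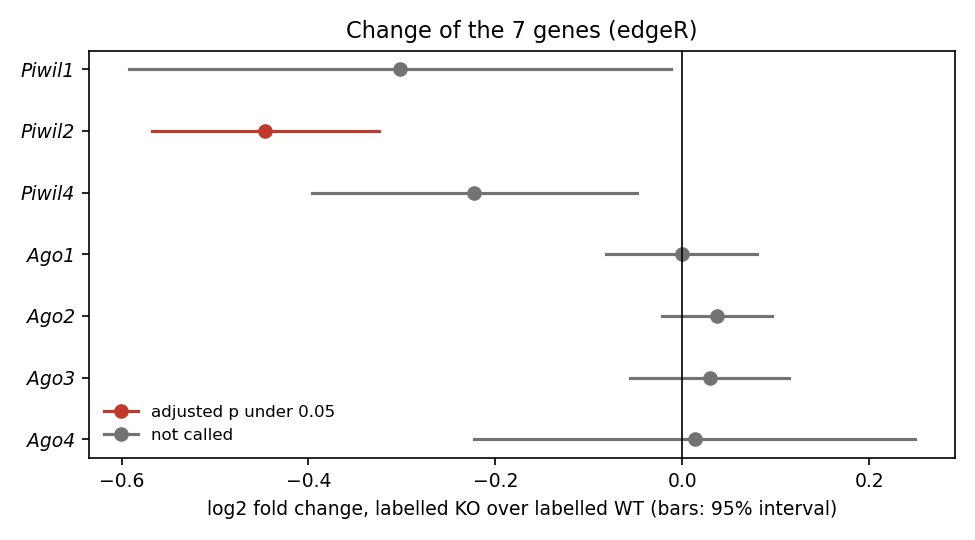
Log2 fold change, labelled KO over labelled WT, of the 7 genes with 95% intervals from edgeR over 4 libraries per group. Piwil2 (red) is called at -0.45, Piwil4 and Piwil1 lie at -0.22 and -0.30 without a call, and the intervals of the 4 Argonautes include 0.

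To set the germline and the broadly expressed branch side by side within each library, their levels per kilobase were summed. The PIWI genes summed to 8.33, 7.81, 7.43 and 7.94 CPM per kilobase under the KO label, against 10.6, 9.67, 9.95 and 10.5 under the WT label. The Argonautes summed to 23.4, 24.0, 23.8 and 23.8, against 24.2, 22.8, 23.8 and 22.8. PIWI genes therefore made up 24.9 ± 1.04% of the 7 genes' summed level under the KO label and 30.3 ± 0.872% under the WT label (SD, n = 4 each), a difference of -5.36 percentage points. The shares of the groups did not overlap, with 26.3% the highest under the KO label and 29.5% the lowest under the WT label. Piwil2 was the largest part of the PIWI sum, at 4.62 and 6.30 CPM per kilobase, so the share largely restates the fall of this called gene. The share is a description of genes partly chosen with their values known, and no p is given for it. Without division by length the difference was -3.32 percentage points.

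Ratios within a library were taken per kilobase. Piwil2 over the germ-cell gene Ddx4 was 0.340, 0.318, 0.295 and 0.329 under the KO label, against 0.463, 0.396, 0.425 and 0.425 under the WT label, and the groups did not overlap. Piwil2 over Ago2 was 0.447 ± 0.0338 and 0.627 ± 0.0665, also without overlap. Since Piwil2 itself did not overlap and neither Ddx4 nor Ago2 was called, these ratios restate its fall and add no separate support. Pou5f1, the gene behind the sorting reporter, averaged 11.4 ± 0.772 and 10.04 ± 0.984 CPM (log2 fold change 0.18, edgeR adjusted p = 0.356). Piwil4 over Ddx4 was 0.161 ± 0.0134 and 0.184 ± 0.0293, with overlap. Piwil2 over Piwil4, the ratio of the fetal PIWI pair, was 2.005 ± 0.223 and 2.36 ± 0.384, also with overlap (SD, n = 4 each).

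**Figure D3:**
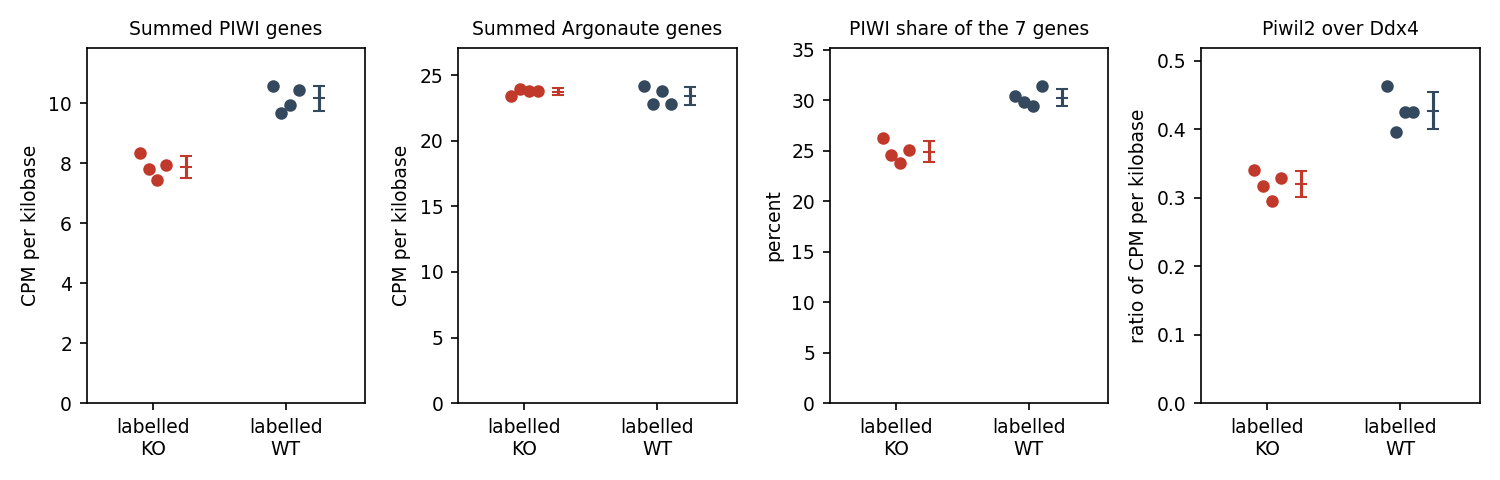
Summed level of PIWI genes and of Argonaute genes, share of PIWI genes in the 7, and ratio of Piwil2 to Ddx4 in each library, in the units on the axes, labelled KO (red) left of labelled WT (dark), with mean and SD of 4 beside the points. The PIWI sum is 7.43 to 8.33 against 9.67 to 10.6 CPM per kilobase, and the Argonaute sums overlap.

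Markers of other cells also differed between the groups. In summed CPM the 7 Leydig markers reached 2838 to 2880 under the KO label and 3121 to 3150 under the WT label (5 of 7 fell), the 7 erythroid markers 91.7 to 96.6 and 219.9 to 235 (4 of 7 fell), and the 10 markers of duct epithelium 93.7 to 104 and 47.7 to 51.4 (10 of 10 rose). The 10 germ-cell markers matched reached 105 to 114 and 94.5 to 103, with 3 of 9 tested higher and none lower. Among the other lists 2 of 9 Sertoli markers and 3 of 7 muscle markers tested fell, 2 of 7 endothelial markers rose, and the macrophage and leukocyte markers summed to 17.9 to 20.4 and 22.4 to 23.2 CPM. No marker of these lists was at 0 in all libraries. All of the lists were chosen with earlier results of these data known, so their counts of called genes are no separate support. Over all genes tested 2.80% were called lower and 2.35% higher. The 3 germ-cell markers called higher were Dazl (log2 fold change 0.37, edgeR adjusted p = 6.24e-05), Dppa3 (0.41, 0.00117) and Dppa5a (0.76, 0.00166). Over the 9 tested the median was 0.37, and 2 lay below 0 without a call, Ddx4 and Dnd1 (-0.33, 0.0915). The groups did not overlap for Dnd1, which held for 4.72% of all genes in this direction. Apart from Ddx4, these genes were named after their values were seen. The part of these shifts in the fall of Piwil2 was not tested. The mean log2 CPM of 7 lists of somatic and blood cells was 3.86 to 3.94 under the KO label and 3.96 to 4.03 under the WT label, without overlap, so a fit with it as a covariate has larger standard errors and cannot fully separate it from the genotype. The lists moved in both directions, with median log2 fold changes of 1.05 for duct epithelium and -1.50 for erythroid markers. Their mean therefore does not measure the share of a given cell type. In the fit with this covariate the log2 fold change of Piwil2 was -0.45 (edgeR adjusted p = 0.00744). That of Piwil4 was -0.14 (0.869) and that of Piwil1 -0.19 (0.902). When libraries were scaled to the germ-cell markers, Piwil2 stood at -0.60, Piwil1 at -0.46 and Piwil4 at -0.37, all called, and the Argonautes between -0.15 and -0.11, with Ago1 called. That scaling shifted all genes together, to a median of -0.15, so values taken relative to this median return those of the TMM fit by construction.

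Genes of the piRNA pathway, called partners here, were then examined. Of 24 partners in piRNA production and piRNA-directed silencing, 4 fell, 1 rose and 19 did not pass, with a median log2 fold change of -0.13 beside 0.00 over all genes tested. The shares called over all genes were 2.80% lower and 2.35% higher. Libraries of both labels were fully apart for 5 partners in the lower direction and 2 in the higher, beside 4.72% of all genes in each direction. Tdrd1, whose tudor-domain protein binds MILI, had 21.4, 22.8, 20.5 and 22.6 CPM under the KO label, against 28.2, 28.4, 30.2 and 30.6 under the WT label, and its log2 fold change was -0.43 (standard error 0.06, adjusted p = 3.27e-08), close to that of Piwil2. Mov10l1, the helicase gene of primary piRNA production, had 31.7 to 34.6 against 37.1 to 43.03 CPM (log2 fold change -0.28, adjusted p = 3.98e-05). Tex15, whose protein acts with MIWI2 in the nucleus, had 75.4 to 81.5 against 88.8 to 93.5 CPM (-0.23, adjusted p = 2.63e-07). With the somatic and blood covariate Tdrd1 was still called (-0.54, adjusted p = 0.000638) and the calls of Mov10l1 (-0.25, adjusted p = 0.268) and Tex15 (-0.15, adjusted p = 0.384) were lost.

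The other called partners were named after their values were seen and rested on fewer settings. Morc1, which encodes a nuclear silencing factor of male germ cells, changed by -0.21 (adjusted p = 0.0432). Leaving out KO replicate 1, 3 or 4 or WT replicate 1, 3 or 4 ended the call (adjusted p up to 0.267). DESeq2 (0.105), limma voom (0.0907), upper-quartile scaling and testing with no filter also ended it. Tdrd12, a tudor-domain gene of secondary piRNA production, was higher by 0.43 (adjusted p = 0.0201). Its call ended without KO replicate 3 or WT replicate 1, 2 or 3 (adjusted p up to 0.197). DESeq2 (0.0650), limma voom (0.0600) and scaling to germ-cell markers also ended it. With the somatic and blood covariate neither was called, Morc1 at -0.11 (standard error 0.11, adjusted p = 0.847) and Tdrd12 at 0.60 (standard error 0.21, adjusted p = 0.190), a larger fold than without it. Ddx4, whose helicase is itself a piRNA factor, averaged 43.4 ± 0.971 CPM under the KO label and 44.5 ± 3.397 CPM under the WT label, with a log2 fold change of -0.03 (edgeR adjusted p = 0.8291).

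Of 20 genes of the microRNA pathway, 2 rose, none fell and 18 did not pass, beside 2.35% higher and 2.80% lower over all genes. In edgeR none had an unadjusted p under 0.05 in the lower direction and 7 had one in the higher, which 8.07% and 7.53% of all genes had. DESeq2 and limma voom called 2 and 1. The median log2 fold change was 0.04, with 17 genes above 0 and 3 below. Lin28a, which encodes an RNA-binding protein that blocks the maturation of let-7 microRNAs, had 8.25, 7.05, 7.88 and 8.87 CPM under the KO label, against 5.96, 6.34, 5.95 and 4.86 under the WT label (log2 fold change 0.47, adjusted p = 0.00527). Its call was lost without KO replicate 4 (adjusted p = 0.0508) or WT replicate 4 (0.0537). Dgcr8, the partner gene of the nuclear microprocessor, had 49.9 to 54.5 against 44.7 to 49.2 CPM (log2 fold change 0.17, adjusted p = 0.0166), which did not pass when KO replicate 1 or 3 or WT replicate 1 or 3 was left out (adjusted p up to 0.100). With the somatic and blood covariate neither was called, Lin28a at 0.46 (standard error 0.20, adjusted p = 0.437) and Dgcr8 at 0.22 (standard error 0.08, adjusted p = 0.227), against standard errors of 0.12 and 0.05 without it. After scaling to germ-cell markers Lin28a stood at 0.32 (adjusted p = 0.0556) and Dgcr8 at 0.02 (0.859).

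**Figure D4:**
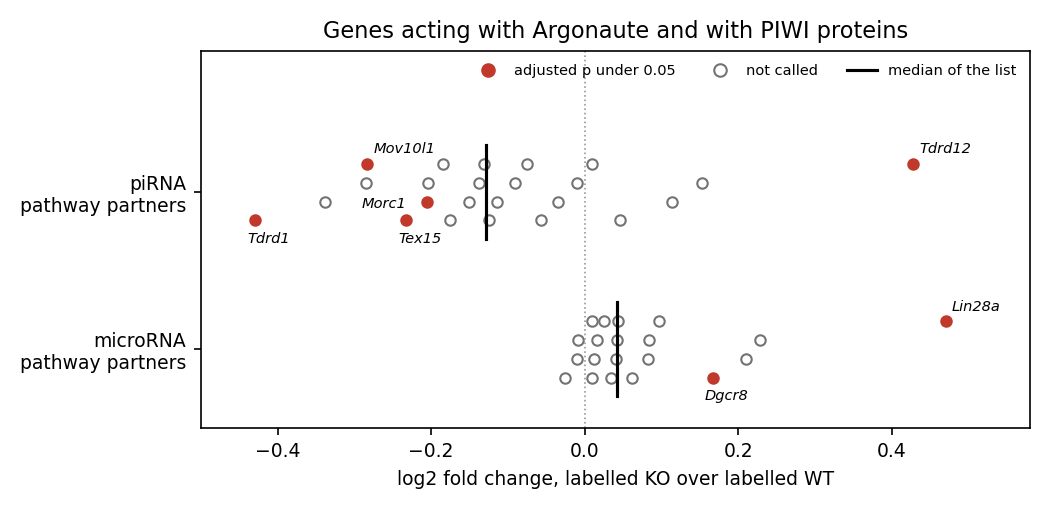
Log2 fold change, labelled KO over labelled WT, of 24 genes of the piRNA pathway and 20 of the microRNA pathway, each point a gene. Points are filled red where called at an adjusted p under 0.05, with a line at the median of each list. The medians are -0.13 for the piRNA partners and 0.04 for the microRNA partners, and height within a row only separates points.

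Genes whose profile over the 8 libraries was most like that of each fetal PIWI gene were found by the root mean square difference of log2 CPM, each gene centred on its own mean, among 12740 protein-coding genes. The closest to Piwil2 were Btg1 (0.0823), Tm7sf2 (0.0838), Tdrd1 (0.0840), Heatr1 (0.0861) and Fsd1 (0.0896), where the median gene differed by 0.262. Tdrd1 is the 1 gene of these 5 that is also among the piRNA partners. The closest to Piwil4 were Fam98b (0.0612), Ccdc110 (0.0653), Tmem206 (0.0677), Mrpl17 (0.0695) and Mtus2 (0.0709), beside a median of 0.181. None of them is in either pathway list. The measure includes the difference between the groups, so genes lower under the KO label come close to Piwil2 through it.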

How the data were processed

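Per the labels' protocols, stranded libraries were prepared from total RNA of the sorted cells with a pico-input kit. The values are raw counts of reads per gene in 1 deposited table, with no normalization. The submitters' processing notes name STAR 2.5.2b, featureCounts, Subread and DESeq2 and the build GRCm38, without settings. Whether strand or reads with several positions were used is not stated, so values of overlapping genes and of stretches shared with other genes are uncertain. The other deposited column used is the gene length in bases, per the file headers. Symbols came from GENCODE M21 (55141 of 55487 IDs matched).

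Counts were tested in R 4.3.3 with edgeR 4.0.16 (filterByExpr, TMM scaling, robust quasi-likelihood test, two-sided, Benjamini-Hochberg over 23190 genes). The fit had 4 libraries a group and no other term. It was also run on counts simulated with the spread estimated from these libraries, which cannot show whether that spread is technical. The common coefficient of variation of that spread, beyond counting noise, was 3.86%. CPM is TMM-scaled, and log2 CPM used a prior count of 2. Alternatives were other scalings and filters, DESeq2 1.42.0, limma 3.58.1 voom, the replicate number as a block, a somatic and blood covariate, and each library left out. Named genes were the 7 members, Rhox10, Ddx4 and Pou5f1, up to 3 called genes with the smallest p of each pathway list, the 5 closest profiles, and overlapping or adjacent genes. The members and lists were chosen with earlier results of these data known. The codon of Piwil2 is not reported here.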

Additional observations from a re-analysis of the deposited data

Results flagged for a closer look

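In the libraries labelled KO, replicate 4 stood apart for Piwil1, at 4.51 CPM where the nearest of the others had 4.06. Its gap was 0.833 of the group's range, just over Dixon's critical value for 4 values. Over the 16 groups of values examined this way, chance flags about 1 in 20. Without KO replicate 4 the log2 fold change of Piwil1 was -0.35 (edgeR adjusted p = 0.277), and the gene was not called with or without it.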

How the results depend on the processing

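Over 18 alternatives Piwil2 was called in 18, at log2 fold changes of -0.60 to -0.41 (adjusted p up to 0.00744). Piwil1 and Piwil4 stayed below 0 in all 18 and were called in 1 each, scaling to germ-cell markers (-0.46, adjusted p = 0.0195, and -0.37, 0.00196). Under that scaling Ago1 was called too (-0.15, 0.0485), so that 4 members were lower, and Ago2, Ago3 and Ago4 turned below 0 without a call (-0.11, -0.12 and -0.14). It shifted all genes by -0.15, with 5160 calls in place of 1193, of which 96.1% were lower (54.4% with TMM, 66.2% with library totals). It left 14 piRNA partners lower and 0 higher, and 5 microRNA partners lower and 0 higher. With the somatic and blood covariate 201 genes were called, with 1 piRNA partner lower (0 higher) and 0 microRNA partners higher. DESeq2 called 785 genes and 0 piRNA partners higher, and limma voom 0 piRNA and 1 microRNA partner higher. With 1 library left out, 0 to 1 piRNA partners and 1 to 2 microRNA partners were higher. Without division by length the PIWI share differed by -3.32 points. With the replicate number as a block 1249 genes were called, Piwil2 at -0.45; same-numbered libraries correlated by -0.014 to 0.023 in their deviations from the group means, and 1 of 4 correlated best with its own number. The cause of these differences was not tested. Depth limits Ago4 and Piwil1, with under 140 counts in a library.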

Other observations

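The protein-coding genes next to Piwil2 were not called. Slc39a14, a zinc transporter gene, was at 15.8 ± 1.23 CPM under the KO label and 16.05 ± 1.45 under the WT label (log2 fold change -0.02, edgeR adjusted p = 0.963), and Polr3d, which encodes a subunit of RNA polymerase III, at 51.9 ± 2.11 and 52.1 ± 2.33 (-0.01, 0.963; SD, n = 4 each). Beside Piwil1, Fzd10, a WNT receptor gene, had a log2 fold change of 0.60 (adjusted p = 0.0889) and Rimbp2 one of 0.35 (0.0926), both with the opposite sign to Piwil1 and neither called. Fzd10 was called without WT replicate 4 (0.77, adjusted p = 0.0394) and Rimbp2 without WT replicate 2 (0.47, 0.0304). Beside Piwil4, Amotl1 had a log2 fold change of 0.05 (adjusted p = 0.401) and Fut4 one of -0.47 (0.416).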
